A study of Mus musculus with 6 samples.

Results

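The genes described are the aryl hydrocarbon receptor gene Ahr, its partner gene Arnt, the repressor gene Ahrr, and 4 genes known as targets of the receptor, Cyp1a1, Cyp1b1, Tiparp and Nqo1. They were chosen by gene symbol, 7 of 55267 genes in the table, with results of the same comparison already known, so their differences between the groups are given as a description. RNA was read in intestinal tissue of mice that received 1 ml of water by gavage once a day for 14 days and were housed at 22 °C. The cold water group (n = 3 libraries) received water at 0 to 4 °C at 8 am, and the control group (n = 3 libraries) received water at 20 to 25 °C at 9 am, so the temperature of the water and the hour of dosing cannot be told apart. Strain, sex and age are not stated in the labels used here. They also do not say whether the 3 libraries of a group are 3 animals, so p-values measure only the spread between these libraries.

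The aryl hydrocarbon receptor is a transcription factor of the bHLH-PAS family that waits in the cytoplasm with HSP90 and other chaperones. On binding a ligand, such as a dietary indole, a bacterial tryptophan product or a pollutant, it enters the nucleus, pairs with ARNT and binds DNA at xenobiotic response elements. In the intestine it is known for sensing diet and microbes, for the upkeep of innate lymphoid cells and intraepithelial lymphocytes, and for the induction of Cyp1a1 in the epithelium, whose enzyme breaks the ligands down. AHRR competes for ARNT and TIPARP (PARP7) marks the receptor for loss, so both are feedback brakes that the receptor itself induces.

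Promoter windows from RefSeq (GRCm38.p6) were matched by symbol for 6 of the 7 genes. The core of the xenobiotic response element, GCGTG on either strand, was found in 5 of these 6 windows, which span 250 bases before to 50 bases after the start site. The same core was found in 32.4% of 32851 windows of this length over all genes. The upstream parts of Cyp1a1, Cyp1b1 and Ahrr are shown because these 3 genes are targets and the copies of the receptor's element in them differ in number. They are written 5′ to 3′ on the strand of the gene, and capitals mark GCGTG or its reverse complement CACGC. They lie at chr9:57697363-57697612 (plus strand), chr17:79715062-79715311 (minus strand) and chr13:74292332-74292581 (minus strand).
Cyp1a1: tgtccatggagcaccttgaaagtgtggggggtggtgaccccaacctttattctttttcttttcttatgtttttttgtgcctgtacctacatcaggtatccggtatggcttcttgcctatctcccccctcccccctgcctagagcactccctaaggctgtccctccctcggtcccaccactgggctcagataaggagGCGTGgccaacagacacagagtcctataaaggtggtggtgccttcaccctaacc
Cyp1b1: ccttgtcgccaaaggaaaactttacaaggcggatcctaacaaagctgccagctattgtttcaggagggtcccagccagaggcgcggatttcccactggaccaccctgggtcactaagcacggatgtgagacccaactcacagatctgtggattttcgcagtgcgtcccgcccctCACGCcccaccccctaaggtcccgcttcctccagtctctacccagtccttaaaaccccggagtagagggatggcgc
Ahrr: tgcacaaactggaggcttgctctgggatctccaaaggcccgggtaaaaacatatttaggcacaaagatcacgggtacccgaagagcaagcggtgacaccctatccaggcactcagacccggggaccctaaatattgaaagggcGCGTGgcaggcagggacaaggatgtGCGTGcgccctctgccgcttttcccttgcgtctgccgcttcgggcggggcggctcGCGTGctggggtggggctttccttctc

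Ahrr held 3 copies of the core, starting at positions -107, -82 and -27 relative to its start site, and 11.1% of all windows held at least 2. The longer form TNGCGTG, which contains the core, matched once among the members, in Ahrr, and in 5.07% of all windows. Cyp1a1, Cyp1b1, Tiparp and Arnt each held 1 core, at positions -54, -76, -170 and -29 relative to the start site. Sequence outside the windows was not searched, so these are not counts of all the elements of a gene. The antioxidant response element core TGACNNNGC, searched on both strands, matched in 1 of the 6 windows, that of Arnt (2 matches), and in 12.4% of all windows. For Nqo1 neither kind was found, which says only that these letters are not in its window.

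**Figure D1:**
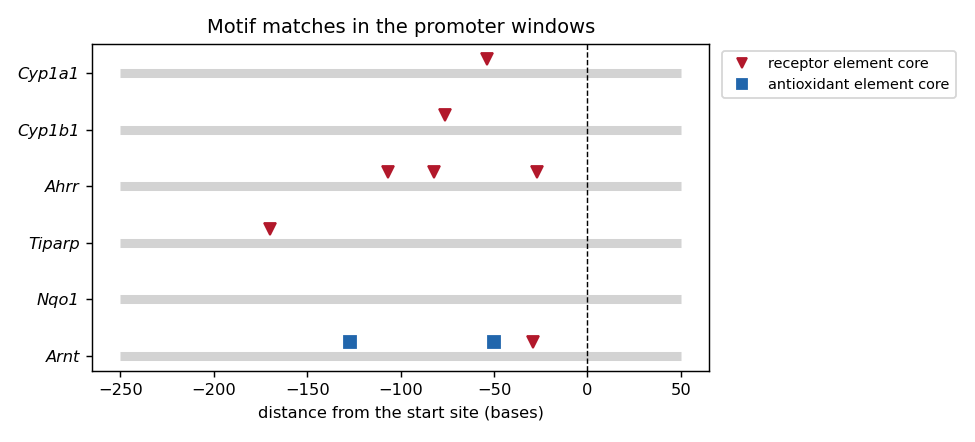
Motif matches on either strand in the promoter windows of 6 genes, by distance in bases from the start site (x axis). Grey bars are the windows, triangles the receptor element core and squares the antioxidant element core. Ahrr holds 3 receptor cores, Cyp1a1, Cyp1b1, Tiparp and Arnt hold 1 each, and Nqo1 holds none.

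Libraries held 72690433 to 78668871 estimated counts, which stand for about 19281300 to 20867100 fragments. The labels name proximal jejunum as the tissue while the design text names colon. Markers of enterocytes, the absorptive cells of the epithelium, summed to 27923 to 48663 FPKM (fragments scaled to transcript length and library depth) in a library. All 10 reached a mean of 1 FPKM, and some, such as Cdh1 and Vil1, are not particular to the small intestine. Sis and Lct, also on the list, stood at 443 to 634 and at 237 to 405 FPKM a library. The 6 colon markers summed to 1.02 to 6.32 FPKM, and Scnn1g and Hoxd13 were at a count of 0 in all 6 libraries. These colon sums were 1.02, 2.48 and 1.93 FPKM in cold water 1, 2 and 3. In control 1, 2 and 3 they were 3.45, 2.72 and 6.32 FPKM, without overlap. Of the 6, 1 reached a mean of 1 FPKM, Aqp8, at 0.625 to 0.978 FPKM in cold water and 2.67 to 3.54 FPKM in controls. Of all genes with such a mean, 4.34% did not overlap and were lower in cold water. Car1 overlapped, as did Hoxb13, which reached 0.159 FPKM in cold water and 0.0401 FPKM in controls. The separation was thus that of Aqp8 and not of the list as a set. The sums of the 5 markers of pancreatic acinar cells barely parted, at 13.24, 15.66 and 14.35 FPKM in cold water and 18.82, 18.87 and 15.74 FPKM in controls. Of the 5, 1 reached a mean of 1 FPKM, Cela1, and it overlapped between groups. It had 13.0, 15.2 and 14.0 FPKM in cold water and 18.2, 16.3 and 13.9 FPKM in controls. The part of both lists in the results was not tested. Cold water 1 stood apart by its plasma and B cell markers, which summed to 4811 FPKM against 1262 to 1906 FPKM in the other libraries. The smooth muscle markers ranged from 159 FPKM in control 3 to 1543 FPKM in control 2. In bulk tissue, fewer cells of a type and less RNA per cell cannot be told apart.

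The receptor itself was scarce, and its best known target was variable. Ordered by mean FPKM over the 6 libraries, the levels were 23.9 for Cyp1a1, 22.8 for Nqo1, 5.97 for Arnt, 4.65 for Tiparp, 1.60 for Ahr, 0.707 for Cyp1b1 and 0.236 for Ahrr. The place of Cyp1a1 rested on cold water 2, without which its mean was 10.8 FPKM, and Nqo1 was above Cyp1a1 in 5 of 6 libraries. Cyp1a1 and Nqo1 overlapped across libraries, as did Arnt with Tiparp, Ahr with Cyp1b1, and Cyp1b1 with Ahrr. Cyp1a1 also overlapped with Arnt and Tiparp, and in control 1 it (2.35 FPKM) was below both (4.02 and 3.39 FPKM). Tiparp lay above Ahr in every library, and Nqo1 above Arnt in every library. Of the 7 genes, 5 reached a mean of 1 FPKM and were tested with all other such genes, and Cyp1b1 and Ahrr, both below that limit, were not.

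**Figure D2:**
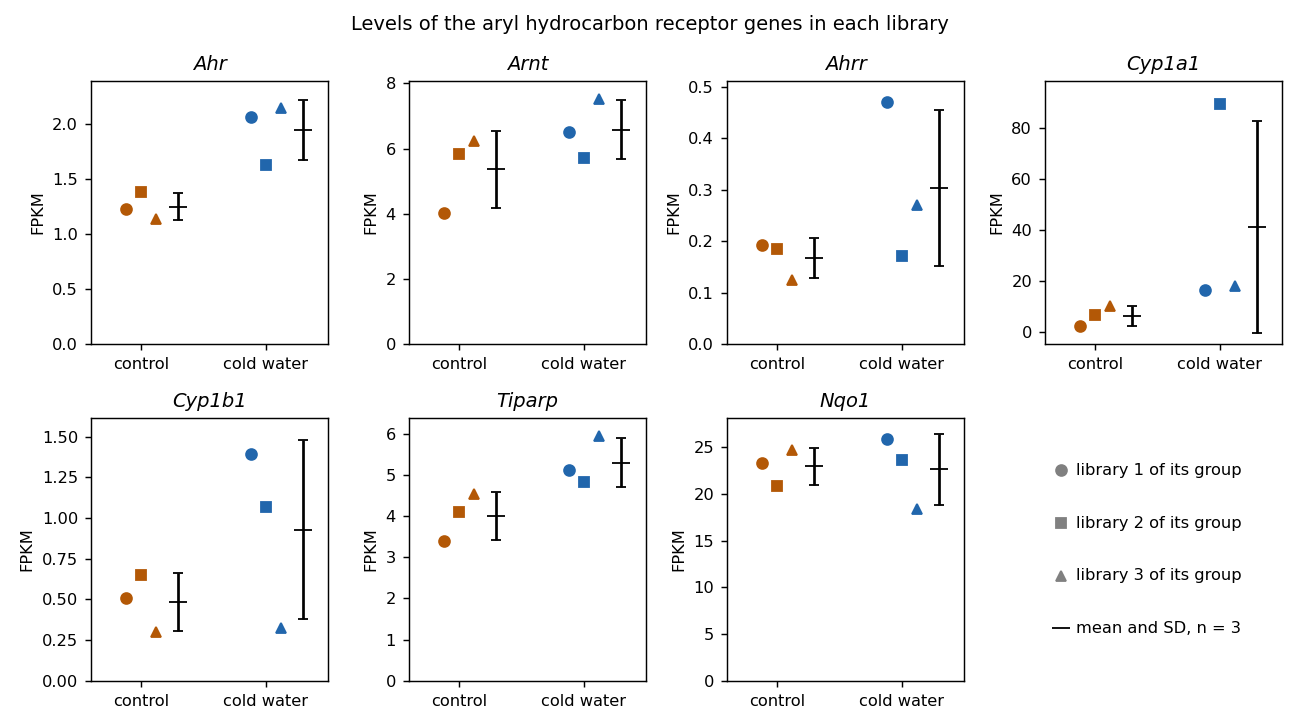
Level in FPKM (y axes, linear, from 0 or just under it) of the 7 genes in the 3 control and 3 cold water libraries. Symbols are single libraries and the black dash with bars is the mean with its SD (n = 3). All cold water points lie above all control points for Ahr, Cyp1a1 and Tiparp, and cold water 2 stands far above the rest at 89.2 FPKM of Cyp1a1.

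Cyp1a1 encodes the cytochrome P450 that oxidises polycyclic hydrocarbons and tryptophan-derived ligands of the receptor. Its level was 16.6, 89.2 and 18.1 FPKM in cold water 1, 2 and 3 and 2.35, 6.72 and 10.2 FPKM in control 1, 2 and 3. Every cold water library was above every control, by 1.62 times between the closest libraries, and cold water 2 was 5.36 times the lowest library of its own group. The controls also spread, with the highest 4.35 times the lowest. The group means were 41.3 ± 41.5 FPKM in cold water and 6.44 ± 3.95 FPKM in controls (SD, n = 3). On the scaled counts the log2 difference, cold water minus control, was 2.66 with a standard error of 0.85, a ratio of 6.31. Without cold water 2 the log2 difference was 1.40 with a standard error of 0.61, a ratio of 2.64, so this 1 library carried much of its size. Without control 3 it was 3.28, a ratio of 9.69, and these were the lowest and the highest values with 1 library left out.

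The scatter of Cyp1a1 within groups was among the widest measured. The SD within groups of its log2 CPM (estimated counts relative to the scaled library total) was 1.24, against a median of 0.27 over all genes tested, and it exceeded that of 98.4% of them. Ahr (0.19) and Nqo1 (0.20) were steadier than the median gene, Tiparp (0.28) was close to it, and Arnt (0.44) was above it. Nearly all Cyp1a1 signal was assigned to the transcript ENSMUST00000034865. The other listed transcript, ENSMUST00000216433, was at a count of 0 in all 6 libraries. The gene lies on chromosome 9, 57687928 to 57703824 (ENSMUSG00000032315), and no other gene of the table overlaps it.

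Ahr encodes the receptor. Its level was 2.06, 1.63 and 2.14 FPKM in cold water 1, 2 and 3 and 1.22, 1.38 and 1.14 FPKM in control 1, 2 and 3. All 3 cold water libraries lay above all controls, by 1.18 times between the closest. The means were 1.94 ± 0.276 and 1.25 ± 0.126 FPKM (SD, n = 3), and the log2 difference was 0.67 with a standard error of 0.21. These levels rest on about 187 to 262 fragments a library in cold water and 144 to 155 in controls. The library highest in Cyp1a1, cold water 2, was the lowest of its group in Ahr. Of 3 listed transcripts (chromosome 12, 35497974 to 35535038, ENSMUSG00000019256), the protein-coding ENSMUST00000116436 held almost all of the level, 1.14 to 2.09 FPKM a library. A noncoding gene on the opposite strand, Gm48236, overlaps Ahr and held 0.163% of the counts of the pair.

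Markers of lymphoid cells that use the receptor were read beside Ahr. The 14 markers of type 3 innate lymphoid and T cells summed to 157, 76.9 and 113 FPKM in cold water 1, 2 and 3 and to 98.2, 65.3 and 82.9 FPKM in control 1, 2 and 3, and the groups overlapped. In the list, 8 of 14 reached a mean of 1 FPKM, Il17a was at a count of 0 in all 6 libraries, and the cytokine gene Il22 had a mean of 0.036 FPKM. The part of these cells in the level of Ahr was not tested.

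Arnt encodes the partner that AHR shares with the hypoxia factors. It stood at 6.52, 5.70 and 7.52 FPKM in cold water 1, 2 and 3 and at 4.02, 5.84 and 6.23 FPKM in control 1, 2 and 3. The groups overlapped, with control 3 and control 2 above cold water 2. The log2 difference was 0.20 with a standard error of 0.31, and it was -0.051 without control 1. Arnt exceeded Ahr in every library, by 3.17 to 3.51 times in cold water and 3.29 to 5.48 times in controls on the FPKM scale.

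Arnt has 11 transcripts in the table, of which 1 was at a count of 0 in all 6 libraries, and the 3 most abundant varied more between libraries than the sum. The coding transcript ENSMUST00000090804 had 2.67, 1.97 and 0.364 FPKM in cold water 1, 2 and 3 and 0.871, 1.72 and 5.02 FPKM in control 1, 2 and 3. The coding transcript ENSMUST00000102749 had 1.71, 0.399 and 2.97 FPKM in cold water and 0.0733, 0.727 and 0.327 FPKM in controls. The retained-intron transcript ENSMUST00000156653 had 0.0309, 1.72 and 2.57 FPKM in cold water and 1.74, 2.20 and 0.330 FPKM in controls. The leading transcript thus differed between libraries within each group, and the groups overlapped for these 3. The retained-intron transcript ENSMUST00000149051, named after its values were seen, did not overlap, at 1.24, 0.800 and 0.809 FPKM in cold water and 0.248, 0.469 and 0.114 FPKM in controls. Its mean was under 1 FPKM, it was not tested, and the share of all transcripts without overlap was not counted. The sum of its class, which follows, overlapped between groups. Transcripts annotated as retaining an intron, 5 of the 11, together had 2.12, 3.24 and 3.87 FPKM in cold water and 2.75, 2.90 and 0.884 FPKM in controls. These transcripts share most of their exons, so how their reads were divided is uncertain. The gene lies on chromosome 3, 95434388 to 95497240 (ENSMUSG00000015522).

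**Figure D3:**
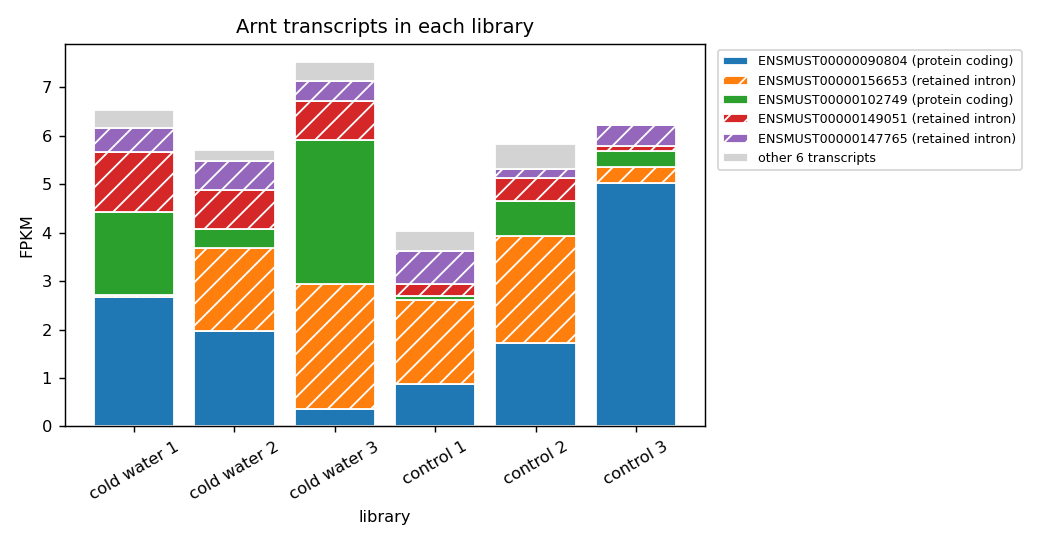
FPKM of Arnt transcripts (y axis, stacked from 0) in each of the 6 libraries (x axis), with hatching for transcripts annotated as retaining an intron. The blue coding transcript ENSMUST00000090804 makes up most of control 3 (5.02 FPKM) and little of cold water 3 (0.364 FPKM).

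The feedback genes Tiparp and Ahrr were read next. Tiparp, an ADP-ribosyltransferase that curbs the receptor, stood at 5.13, 4.82 and 5.95 FPKM in cold water 1, 2 and 3 and at 3.39, 4.09 and 4.54 FPKM in control 1, 2 and 3. The groups did not overlap in FPKM but came within 1.06 times of each other, and in CPM they overlapped, with control 3 (22.0 CPM) above cold water 1 and 2 (20.5 and 21.3 CPM). The log2 difference was 0.40 with a standard error of 0.22, and it was 0.18 without cold water 3. Tiparp (chromosome 3, 65528410 to 65555518, ENSMUSG00000034640) was highest in cold water 3 in FPKM and CPM, as was Ahr. Arnt was highest there in FPKM, while in CPM control 3 (30.4) was above cold water 3 (26.2). The antisense neighbour 4931440P22Rik held 1.40% of the counts of the pair.

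Ahrr stood at 0.469, 0.172 and 0.271 FPKM in cold water 1, 2 and 3 and at 0.193, 0.185 and 0.124 FPKM in control 1, 2 and 3. Cold water 2, the library with the most Cyp1a1, lay below control 1 and control 2 in FPKM, and in CPM (0.913) below control 1 (1.02) and above control 2 (0.886). The values rest on about 14 to 52 fragments a library, so they are coarse. Cold water 1, the highest, was also the library with the most plasma and B cell RNA and the highest lymphoid marker sum. The part of those cells was not tested. With the limit lowered to a mean of 0.1 FPKM, the log2 difference was 0.85 with a standard error of 0.45. Of its 7 transcripts (chromosome 13, 74211118 to 74292331, ENSMUSG00000021575), 5 were at a count of 0 in all libraries.

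Cyp1b1, a cytochrome P450 of stromal cells in many tissues that the receptor also induces, stood at 1.39, 1.07 and 0.322 FPKM in cold water 1, 2 and 3. In control 1, 2 and 3 it stood at 0.511, 0.649 and 0.297 FPKM. The groups overlapped widely, since cold water 3 lay below control 1 and control 2. The 7 fibroblast markers summed to 121, 99.8 and 53.7 FPKM in cold water and 76.4, 137 and 29.6 FPKM in controls. Cold water 3 and control 3, the lowest in Cyp1b1, were also the lowest in the fibroblast, smooth muscle and endothelial lists, whose part in the level of Cyp1b1 was not tested. With the lower limit the log2 difference was 0.92 with a standard error of 0.50. The gene lies on chromosome 17, 79701537 to 79715061 (ENSMUSG00000024087).

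Nqo1 encodes a quinone reductase driven by both the receptor and NRF2, the factor of the antioxidant response. It stood at 25.8, 23.6 and 18.4 FPKM in cold water 1, 2 and 3 and at 23.2, 20.8 and 24.7 FPKM in control 1, 2 and 3. The groups overlapped on both scales. The highest and the lowest library were of the cold water group in FPKM and of the control group in CPM (control 3 at 46.4 and control 2 at 32.3 CPM). The log2 difference was -0.029 with a standard error of 0.17. Relative to Nqo1, Cyp1a1 stood at 0.645, 3.79 and 0.983 times its FPKM in cold water. In controls it stood at 0.101, 0.323 and 0.415 times, without overlap. Cyp1a1 alone did not overlap either, and the share of such ratios without overlap was not counted. Relative to Ahr, Cyp1a1 stood at 8.08, 54.7 and 8.45 times in cold water and at 1.92, 4.85 and 9.01 times in controls, so control 3 exceeded cold water 1 and 3. Nqo1 has 1 transcript in the table (chromosome 8, 107388225 to 107403206, ENSMUSG00000003849).

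Read together, 6 of the 7 genes had a higher mean FPKM in cold water, and Nqo1 did not. Among these 6, Arnt, Ahrr and Cyp1b1 overlapped between groups, and Ahrr and Cyp1b1 were not tested. The share of all genes with a higher mean in cold water was not counted. The median log2 difference over all genes tested was 0.029. Of the 5 tested, 0 passed the quasi-likelihood test of edgeR after Benjamini-Hochberg adjustment over 12940 genes. Of all these genes 0.0386% passed, 0.0155% higher and 0.0232% lower in cold water. The edgeR adjusted p was 0.878 for Ahr, Cyp1a1 and Tiparp, 0.960 for Arnt and 0.993 for Nqo1. At an unadjusted p under 0.05 there were 2 of 5 (Ahr and Cyp1a1), both higher, beside 5.01% of all genes tested, or 2.88% in that direction. DESeq2 and limma called 0 of 5, beside 0.549% and 0.0232% of all genes. The groups did not overlap in FPKM for 3 of 5, all higher in cold water. Of all genes 9.44% did not overlap in FPKM, 5.09% higher and 4.34% lower. In CPM the groups did not overlap for 2 of 5, both higher, beside 10.5% of all genes, 5.29% higher and 5.22% lower. Since the members were named with this comparison known, nothing is read from these counts.

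**Figure D4:**
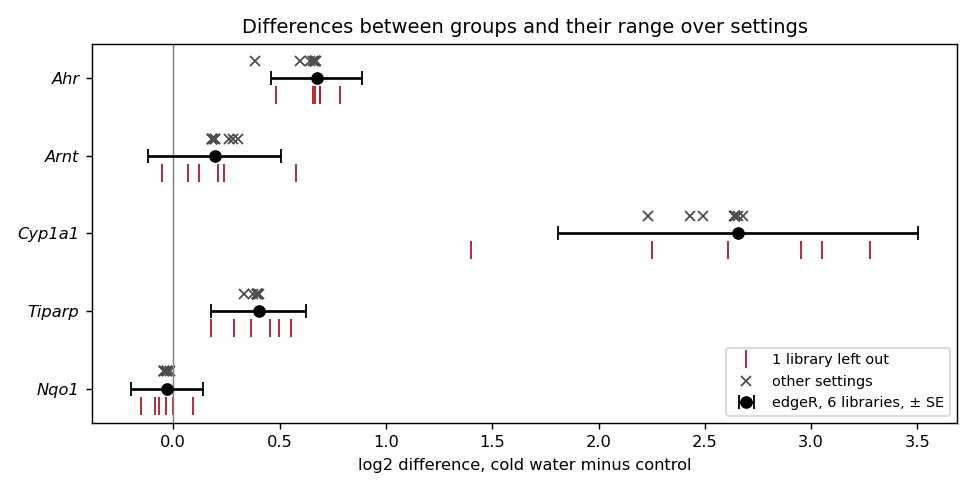
Log2 difference, cold water minus control (x axis), of the 5 tested genes. Dots with bars are the edgeR values with their standard errors, red ticks the values with 1 library left out, and crosses the other settings. Cyp1a1 ranges from 1.40 to 3.28, Ahr stays between 0.39 and 0.78, and Nqo1 and Arnt reach both sides of 0.

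At the level of transcripts, 7 of the 30 listed for these genes reached a mean of 1 FPKM. Of these, 0 passed edgeR's quasi-likelihood test adjusted over 21041 transcripts, of which 0.0285% passed. At an unadjusted p under 0.05 there were 2, the main transcripts of Ahr and Cyp1a1, beside 4.73% of all transcripts tested. DESeq2 called 1 of the 7, ENSMUST00000034865 of Cyp1a1 (log2 difference 2.65, DESeq2 adjusted p = 0.0397), where edgeR gave an adjusted p of 0.960 for the same transcript. DESeq2 called 2.78% of all transcripts tested. For ENSMUST00000116436 of Ahr the DESeq2 adjusted p was 0.0516, and limma called 0 of the 7, beside 0.109% of all transcripts.

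Genes whose profile over the 6 libraries was most like that of a member were found by the root-mean-square difference of centred log2 CPM. This measure of likeness is over 6 libraries and is a description. Nearest to Ahr was Gclc, which encodes part of the ligase that begins the making of glutathione, at 0.071 among 9564 candidates, then the uncharacterised genes 0610040J01Rik (0.087) and Gm9442 (0.11). Gm9442 was low, at 0.287 to 1.12 CPM a library. Nearest to Cyp1a1 among 832 candidates was Flvcr1, a heme and choline transporter, at 0.65. It had 17.6, 149 and 22.0 CPM in cold water and 8.56, 13.0 and 34.8 CPM in controls, and so shared the peak in cold water 2 but overlapped between groups. Next were Nt5e (0.82), the ecto-enzyme CD73, and the antibody gene Igkv8-18 (0.84). Igkv8-18 was low, at 0.467, 4.61 and 0.122 CPM in cold water 1, 2 and 3 and at 0 in all 3 controls. Its likeness rests mainly on cold water 2. Nearest to Tiparp among 10609 candidates were Dennd5b (0.041), Trip11 (0.045) and Pde4dip (0.046), genes of membrane traffic and the Golgi.

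Genes around the receptor were read in 5 lists, whose counts stand beside 0.0386% of all genes tested past the threshold of edgeR and 5.01% at an unadjusted p under 0.05. In the receptor complex and its coregulators, all 16 genes were tested and 0 passed edgeR's test over all genes in either direction, with 1 at an unadjusted p under 0.05. The median log2 difference of the list was 0.11, beside 0.029 over all genes tested. The gene of smallest p was Hsp90aa1, the inducible HSP90 chaperone, at 76.3, 59.4 and 48.0 FPKM in cold water and 42.1, 41.4 and 29.6 FPKM in controls, without overlap (log2 difference 0.63, standard error 0.17, edgeR adjusted p = 0.878). Of all genes tested, 5.09% did not overlap in FPKM and were higher in cold water. The coactivator gene Ncoa2 (log2 difference 0.99, standard error 0.51) and the ubiquitin ligase adaptor gene Ddb1 (0.24, standard error 0.13) overlapped between groups.

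Among 13 relatives of the bHLH-PAS family, which include other partners of ARNT, 5 were tested and 0 passed, with 0 at an unadjusted p under 0.05. Their median log2 difference was 0.25, and it was -0.062 without cold water 3. Epas1 (0.25, standard error 0.13) and Hif1a (0.34, standard error 0.19), the hypoxia factors, and the clock gene Arntl (-0.42, standard error 0.28) had the smallest p, with an edgeR adjusted p of 0.878 to 0.883. The clock gene Clock was the 1 gene of the 5 tested without overlap in FPKM, lower in cold water at 3.98 ± 0.317 against 5.07 ± 0.522 FPKM (SD, n = 3), beside 4.34% of all genes tested in that direction. Its log2 difference was -0.19 (standard error 0.21, edgeR adjusted p = 0.937). Of the genes not tested, Arnt2, a relative of Arnt, had 0.857, 0.842 and 2.17 FPKM in cold water and 0.240, 0.228 and 0.424 FPKM in controls, without overlap. Arnt2 had a mean of 0.793 FPKM, so the shares of all genes tested do not cover it. Of the other relatives not tested, Hif3a, Npas1, Npas4 and Arntl2 overlapped, and Sim1, Sim2 and Npas3 were near 0. Clock and the untested genes were named after their values were seen.

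Of 18 other genes known as targets of the receptor, 13 were tested and 0 passed, with 0 at an unadjusted p under 0.05. The median log2 difference was 0.031. Rnf43, a brake on Wnt signalling (-0.29, standard error 0.15), and the glucuronosyltransferase genes Ugt1a1 (-0.36, standard error 0.22) and Ugt1a7c (0.49, standard error 0.31) had the smallest p. The Ugt1a genes share exons, so their values are uncertain. Groups did not overlap for Ugt1a1 (109 ± 14.1 against 143 ± 27.4 FPKM) and for the cytochrome P450 gene Cyp2s1 (26.7 ± 0.603 against 30.8 ± 2.33 FPKM, SD, n = 3), both lower in cold water, beside 4.34% of all genes tested in that direction. The neighbour and close relative of Cyp1a1, Cyp1a2, was at 0.192 FPKM or less in each library, and the aldehyde dehydrogenase gene Aldh3a1 at 0.377 FPKM or less, and so neither was tested. Cyp1a2, Aldh3a1 and Cyp2s1 were named after their values were seen.

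The NRF2 targets share the antioxidant regulation of Nqo1. Of 20 genes 19 were tested and 0 passed edgeR's test, with 1 at an unadjusted p under 0.05, and the median log2 difference was 0.037. Gclc had 17.8, 14.1 and 16.8 FPKM in cold water 1, 2 and 3 and 9.70, 10.5 and 8.87 FPKM in controls, without overlap. Its log2 difference was 0.76 (standard error 0.15, edgeR adjusted p = 0.788), and DESeq2 called it, the 1 gene of the 5 lists that it called. The glutathione transferase gene Gsta3 (0.78, standard error 0.35) did not overlap either, and the thioredoxin gene Txn1 (-0.34, standard error 0.19) did. These were 2 of 19 without overlap in FPKM and higher in cold water, Gclc and Gsta3, beside 5.09% of all genes tested.

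Enzymes of tryptophan breakdown make or remove ligands of the receptor. Of 16 genes 7 were tested and 0 passed edgeR's test, with 1 at an unadjusted p under 0.05, and the median log2 difference was 0.29. Kyat1, an aminotransferase that forms kynurenic acid, had 13.9, 25.0 and 36.0 FPKM in cold water and 13.1, 11.3 and 11.4 FPKM in controls. Its groups did not overlap, though cold water 1 came close to control 1 (log2 difference 1.11, standard error 0.38, edgeR adjusted p = 0.878). Without overlap in FPKM and higher in cold water were 5.09% of all genes tested. The formamidase gene Afmid (0.29, standard error 0.31) and Tph1 (0.36, standard error 0.45), which turns tryptophan toward serotonin, overlapped between groups.

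**Figure D5:**
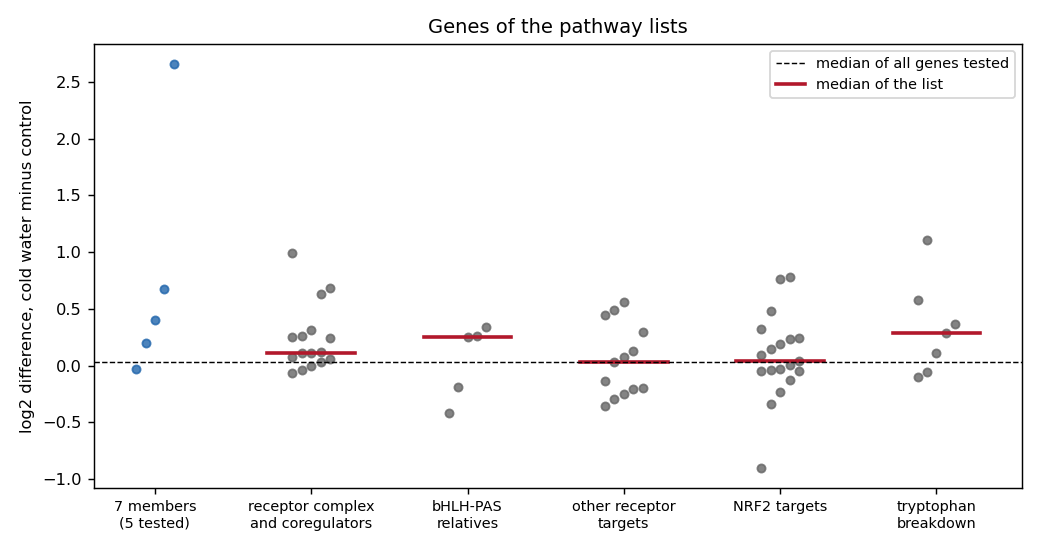
Log2 difference, cold water minus control (y axis), of each tested gene in the 7 members and in 5 lists around the receptor (x axis). Red lines are list medians and the dashed line is the median of all genes tested (0.029). No list gene passed edgeR's test over all genes, and the list medians lie between 0.031 and 0.29.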

How the data were processed

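The deposited table holds, per the file headers, FPKM and an estimated count of 142604 transcripts in 6 libraries. StringTie 1.3.4d and HISAT2 2.0.4 are named in the submitters' processing notes, as are FastQC 0.10.1, cutadapt 1.9, DESeq2 and edgeR. What each did, the genome build and strandedness are not stated there. The deposited estimated counts followed FPKM times length, so they are coverage estimates, and 1 fragment was taken as 3.77 counts. A transcript without counts has 0.0001 FPKM. All 30 transcripts of the members had the GRCm38 positions of GENCODE M21. Transcripts were summed by gene symbol, and the 12940 genes and the 21041 transcripts whose mean reached 1 FPKM were tested with edgeR 4.0.16 (R 4.3.3) with group as the sole term, TMM scaling (factors 0.897 to 1.10) and Benjamini-Hochberg adjustment at 0.05. DESeq2 1.42.0 and limma 3.58.1 on log2(FPKM + 1) were alternatives. The test was tried on simulated data.

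CPM are estimated counts over scaled totals, and SDs of log2 CPM used a pseudocount of 0.5. The members and lists were chosen with earlier results of these data known. Named list genes were those past the threshold, otherwise the 3 of smallest unadjusted p. Genes like Ahr, Cyp1a1 or Tiparp were the 3 nearest among tested genes with an SD over libraries at least 0.5 times that of the member.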

Additional observations from a re-analysis of the deposited data

How the results depend on the processing

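The number of genes past the threshold was 5 with edgeR and TMM, 3 with no scaling factors, 3 with no filter on low values, 2 with a mean of at least 0.1 FPKM, 71 with DESeq2, 3 with limma on log2(FPKM + 1), 3 with limma on log2(FPKM + 0.1), 3 with counts divided by the worth of 1 fragment, and 0 to 1 with any 1 library left out. For transcripts it was 6 with edgeR, 585 with DESeq2, 23 with limma, and 0 to 10 with 1 library left out (10 without control 3). The replicate block called 0 genes and 0 transcripts. The labels name no pairs or batches, so the numbers were not taken as pairs. Same-numbered libraries correlated at -0.023, 0.21 and 0.41 in their deviations from the group means, which does not settle whether they are pairs. Cold water 1 and 2 both correlated best with control 2, and cold water 3 with control 3. The cause of these moves in the counts was not tested.

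Of the receptor genes 0 passed under the 15 alternatives, and DESeq2 called 1 list gene, Gclc. Over these alternatives Ahr ranged from 0.39 to 0.78 (adjusted p 0.319 to 1.00), Cyp1a1 from 1.40 to 3.28 (0.379 to 1.00) and Tiparp from 0.18 to 0.56 (0.770 to 1.00), all in the same direction. The 0.39 of Ahr was from limma on log2(FPKM + 1), and limma on log2(FPKM + 0.1) gave 0.59. With 1 library left out its lowest value was 0.48, without cold water 3. Arnt ranged up to 0.58 (without control 3) and reversed to -0.051 without control 1. Nqo1 ranged down to -0.15 (without control 2) and reversed to 0.0949 without control 3 and 0.0002 without cold water 3. List medians ranged from -0.21 to 0.13 for the other receptor targets and from -0.044 to 0.20 for the NRF2 targets, so neither has a settled direction. Intervals of counts were not given, since counts are coverage estimates. With about 14 to 52 fragments a library, Ahrr is limited by depth.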
